A study of Drosophila melanogaster with 8 samples.

Results

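The vacuolar ATPase (Vha) genes and the vacuolar protein sorting (Vps) genes of Drosophila melanogaster were followed across single white prepupae of both sexes, in wild type animals and in animals mutant for 2 subunits of a chromatin remodelling complex. Members were genes whose platform annotation gave exactly 1 symbol, starting with Vps and a digit or with Vha and a digit, A, P, S or M. The rule found 58 genes of 11982 with a single symbol, 31 Vha and 27 Vps, measured by 59 probe sets. Probe sets were chosen by level, taking for each gene the brightest by mean log2 intensity over 8 arrays. That mattered for Vha16-1 alone, whose kept probe set averaged 12.32 and whose other averaged 11.48. Vha68-1 and Vha68-2, which encode the same subunit as Vha68-3, are not analysed here.

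The V-ATPase is a rotary proton pump that acidifies endosomes, lysosomes and secretory compartments. Its peripheral V1 domain hydrolyses ATP, and its membrane-embedded V0 domain carries the protons. In flies many of its subunits are encoded by several genes, and in each such set 1 gene is typically used in most tissues, while others are used in few. The Vps genes are named after yeast mutants that missort vacuolar proteins, and their products form the machines that carry cargo to and from the lysosome. These are the ESCRT complexes, which sort cargo into the vesicles of late endosomes, HOPS and CORVET, which tether membranes, retromer and GARP, which return cargo to the Golgi, the class III phosphoinositide 3-kinase, and the Vps13 lipid transfer proteins.

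The 8 arrays formed 4 groups of 2 animals, all at the white prepupal stage, 0 hours after puparium formation. Wild type animals were of the strain w1118, and the others were labelled bap170;bap180 double mutants, without naming alleles. Bap170 and Bap180 (now called polybromo) are subunits specific to the PBAP form of the Brahma complex. Values are log2 of RMA intensities, and differences were tested with limma over all 18769 probe sets with Benjamini-Hochberg adjustment and a threshold of 0.05. Errors after differences are standard errors (SE) of that fit. Each array is a different single animal, but nothing in the labels says whether animals of a group came from separate cultures.

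Transcripts of the mutated genes were lower on the mutant arrays, with Bap170 at 5.69 to 6.09 against 6.88 to 7.35 in wild type and polybromo at 3.96 to 4.27 against 5.09 to 6.30 (limma adjusted p = 0.00264 and 0.00121). Array medians lay at 4.80 to 4.87 in females and at 5.05 to 5.13 in males, while the median difference between the sexes over all probe sets was -0.13, so small sex differences depend on scaling. Replicate 2 of the mutant males scored 26.7 on the first principal component, against 53.4 to 59.6 for the other males and -53.1 to -48.3 for the females. Leaving it out ended both Vps calls for sex that are given below, as did leaving out most other single arrays. It also added Vha100-5 to the Vha calls as lower in males. Brightness differs between probe sets for reasons other than transcript number, so levels are compared between arrays and never between genes. In whole animals, fewer cells of a type and less RNA per cell cannot be told apart.

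The sex calls of the families differed in direction, and the Vps calls were few. Of 31 Vha genes 10 were higher in males and 0 lower, against 11.4% and 2.5% of all 11982 genes. Of 27 Vps genes 0 were higher and 2 were lower in males. The median male minus female difference was 0.04 for the Vha family and -0.17 for the Vps family, against -0.11 over all genes. For the 21 Vha genes not called it was -0.05, so the families as a whole did not part by sex. When each array was centred on its median, the Vha median became -0.22 and the Vps median -0.43, with -0.40 over all probe sets. The 10 Vha genes include members of both pump domains, 2 of the 11 V1 genes and 8 of the 18 V0 genes. Among them are paralogs of 6 subunits, D, a, c, c", d and e, for which another gene was not called, and 1 gene of the A subunit.

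**Figure D1:**
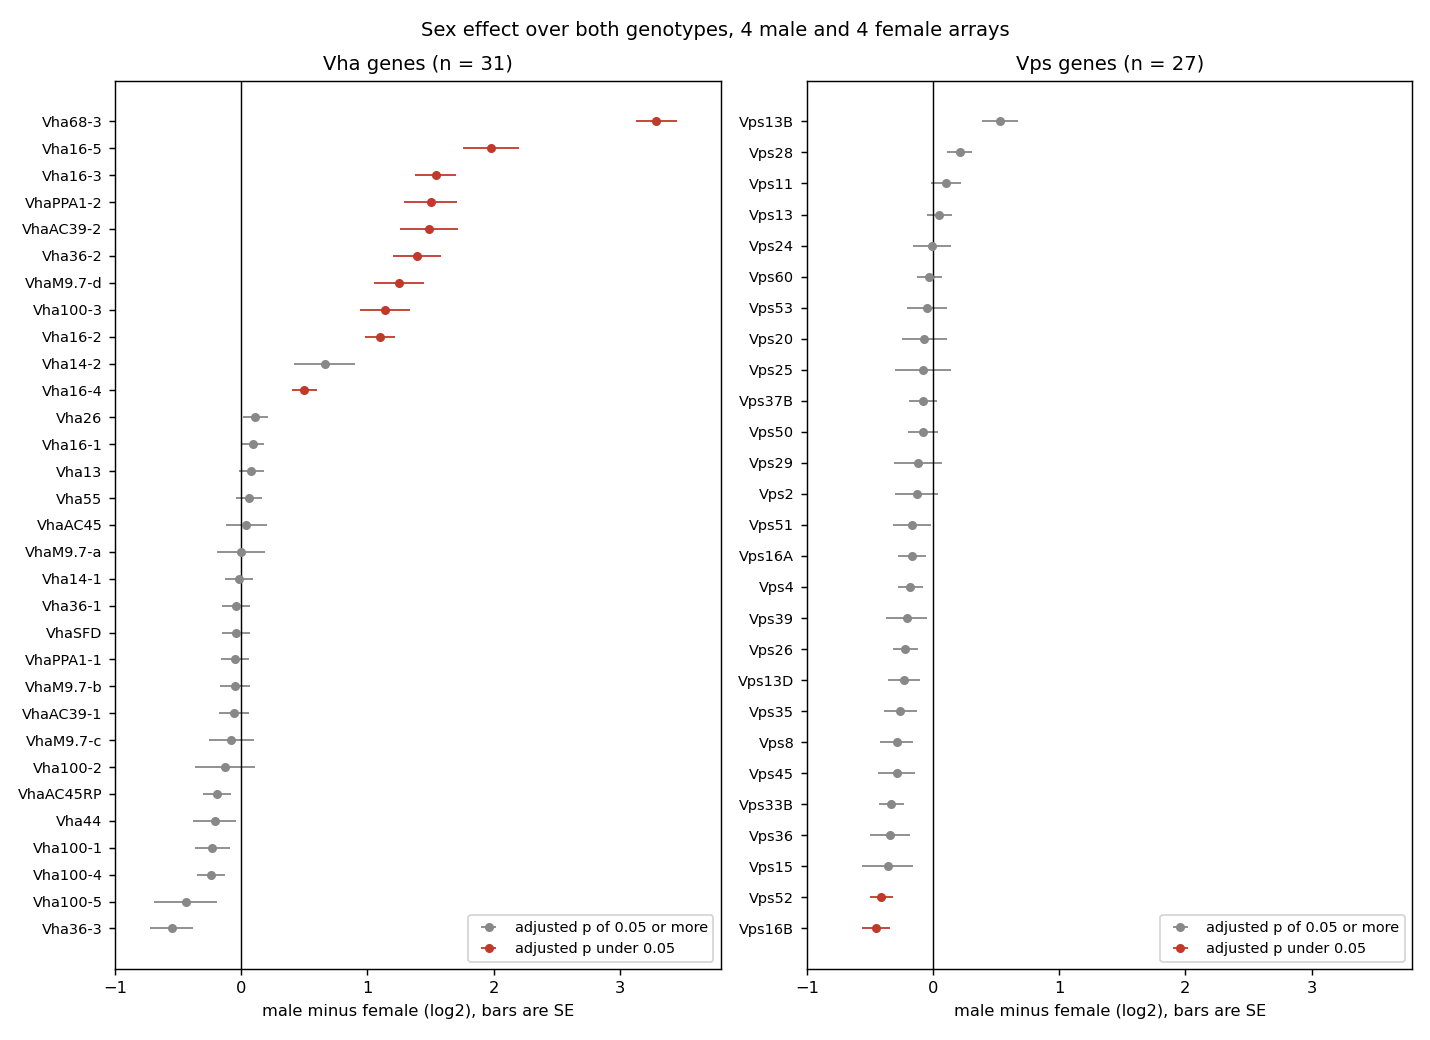
Male minus female difference (log2, bars are SE) of each Vha gene (left) and each Vps gene (right), over 4 male and 4 female arrays, with genes of adjusted p under 0.05 in red. The 10 called Vha genes lie between 0.50 and 3.29, and the 2 called Vps genes at -0.41 and -0.45.

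The largest sex difference was that of Vha68-3, a gene of the catalytic A subunit, which splits ATP. Its log2 intensity was 3.82 and 3.66 in wild type females, 3.81 and 3.74 in mutant females, 7.49 and 6.94 in wild type males and 7.10 and 6.67 in mutant males. All 4 males thus stood above all 4 females, which lay below their array medians. The difference was 3.29 ± 0.16 (SE, n = 4 arrays per sex), or 9.79-fold (limma adjusted p = 1.82e-05). It was called within wild type (3.47, adjusted p = 0.000126) and within mutants (3.11, adjusted p = 0.000307).

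The D subunit belongs to the central stalk that couples both domains. Vha36-2 read 4.19 and 4.67 in wild type females, 4.44 and 4.32 in mutant females, 6.03 and 5.91 in wild type males and 5.97 and 5.25 in mutant males. The sexes did not overlap, and the difference was 1.39 ± 0.19 (SE, n = 4 per sex, limma adjusted p = 0.00261). Vha36-1, of the same subunit, had group means of 10.85, 10.81, 10.92 and 10.88 in wild type females, wild type males, mutant females and mutant males, a difference between the sexes of -0.04 ± 0.11 (adjusted p = 0.837). Vha36-3, the third D gene, leaned the other way, with 6.18 in wild type females against 5.28, 5.37 and 5.17 in the other groups, in the same order. Its sex difference of -0.55 ± 0.17 (adjusted p = 0.107) and its genotype difference of -0.46 ± 0.17 (adjusted p = 0.30) did not pass. When the arrays were quantile normalized once more, or centred on their medians, the sex difference of Vha36-3 passed.

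Among the F subunit genes Vha14-1 averaged 11.23, 11.26, 11.45 and 11.38 in those 4 groups. Vha14-2 read 4.06, 3.89, 3.91 and 4.20 in the females and 4.38, 5.49, 4.50 and 4.35 in the males, so all males lay above all females. Wild type male replicate 2 stood 1.11 above replicate 1, and the difference of 0.66 ± 0.24 was not called (limma adjusted p = 0.145). Without wild type male replicate 1, Vha14-2 passed.

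The c subunit forms the membrane ring that turns as protons pass, and it has 5 genes here. Vha16-5 read 4.77 and 4.92 in wild type females, 4.96 and 4.59 in mutant females, 6.44 and 7.41 in wild type males and 6.76 and 6.55 in mutant males. The male arrays were higher throughout, by 1.98 ± 0.22 (SE, n = 4 per sex, 3.95-fold, limma adjusted p = 0.000934). Vha16-3 read 4.64 and 4.40, 4.78 and 4.82, 6.04 and 6.73, and 6.08 and 5.94 in the same groups. It too showed no overlap, with a difference of 1.54 ± 0.16 (adjusted p = 0.000754).

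Vha16-2 had group means of 4.06 and 3.97 in wild type and mutant females and of 5.33 and 4.90 in the males of each genotype, a difference of 1.10 ± 0.12 (limma adjusted p = 0.000809). Vha16-4 had the smallest called difference of the 10, 0.50 ± 0.10 (adjusted p = 0.0163), with 4.34, 4.44, 4.88 and 4.90 in the same order. It lay below the array median on all 8 arrays, and its call ended without wild type female replicate 2, wild type male replicate 2, either mutant female or mutant male replicate 1, and under median centring. Vha16-1 stayed between 12.19 and 12.49 on the 8 arrays, with a sex difference of 0.09 ± 0.09 (adjusted p = 0.541). Vha16-2 and Vha16-3 lie next to each other in the reference gene order, with 0 protein-coding genes between them, and both were higher in males.

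The c" subunit sits in the same ring. VhaPPA1-2 read 4.19 and 4.04 in wild type females, 4.56 and 4.25 in mutant females, 5.51 and 6.39 in wild type males and 5.77 and 5.39 in mutant males. The sexes were again apart, by 1.50 ± 0.21 (SE, n = 4 per sex, limma adjusted p = 0.00309). VhaPPA1-1, which is separated from it by 1 protein-coding gene, had group means between 10.70 and 10.80 and a sex difference of -0.05 ± 0.11 (adjusted p = 0.799).

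The d subunit links the ring to the stalk. VhaAC39-2 read 4.24 and 4.47 in wild type females, 4.74 and 4.67 in mutant females, 5.59 and 6.68 in wild type males and 5.93 and 5.88 in mutant males. Males were higher without overlap, by 1.49 ± 0.23 (SE, n = 4 per sex, limma adjusted p = 0.00501). VhaAC39-1, its paralog, averaged 10.47 and 10.28 in wild type females and males and 10.73 and 10.80 in mutant females and males, a difference of -0.06 ± 0.12 (adjusted p = 0.773).

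The e subunit is a small membrane protein of V0 with 4 genes here. VhaM9.7-d read 4.30 and 4.52 in wild type females, 4.55 and 4.74 in mutant females, 6.11 and 5.89 in wild type males and 5.98 and 5.11 in mutant males. All males exceeded all females, by 1.25 ± 0.20 (SE, n = 4 per sex, limma adjusted p = 0.0058). VhaM9.7-a averaged 5.91 and 5.86 in wild type females and males and 6.05 and 6.10 in mutant females and males. VhaM9.7-b averaged 11.17, 11.05, 10.99 and 11.02 in the same order, and VhaM9.7-c 9.10, 8.96, 8.90 and 8.88. These e genes were not called, with sex differences of 0.00, -0.05 and -0.08 and adjusted p of 0.998, 0.816 and 0.799.

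The a subunit holds the channels by which protons enter and leave the membrane. Vha100-3 read 5.00 and 4.64 in wild type females, 5.02 and 4.49 in mutant females, 6.37 and 5.71 in wild type males and 5.64 and 6.01 in mutant males. The difference was 1.14 ± 0.20 (SE, n = 4 per sex, limma adjusted p = 0.0114), and its call ended when the arrays were quantile normalized once more (adjusted p = 0.0596). Leaving out replicate 2 of the wild type females also ended it (adjusted p = 0.0557). Vha100-1, known for its role in neurons, averaged 9.40 and 8.82 in wild type females and males and 9.28 and 9.42 in mutant females and males, a sex difference of -0.23. Vha100-2 averaged 9.27, 8.96, 9.24 and 9.30 in the same order, a difference of -0.13. Vha100-5, at 6.57, 5.84, 6.78 and 6.62, differed by -0.44, and Vha100-4, at 4.03, 3.97, 4.28 and 3.86, by -0.24. None of these passed, although Vha100-1, Vha100-4 and Vha100-5 were called lower in males under median centring. Vha100-4 lies next to Vha100-2 in the gene order and was below the array median on all 8 arrays.

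**Figure D2:**
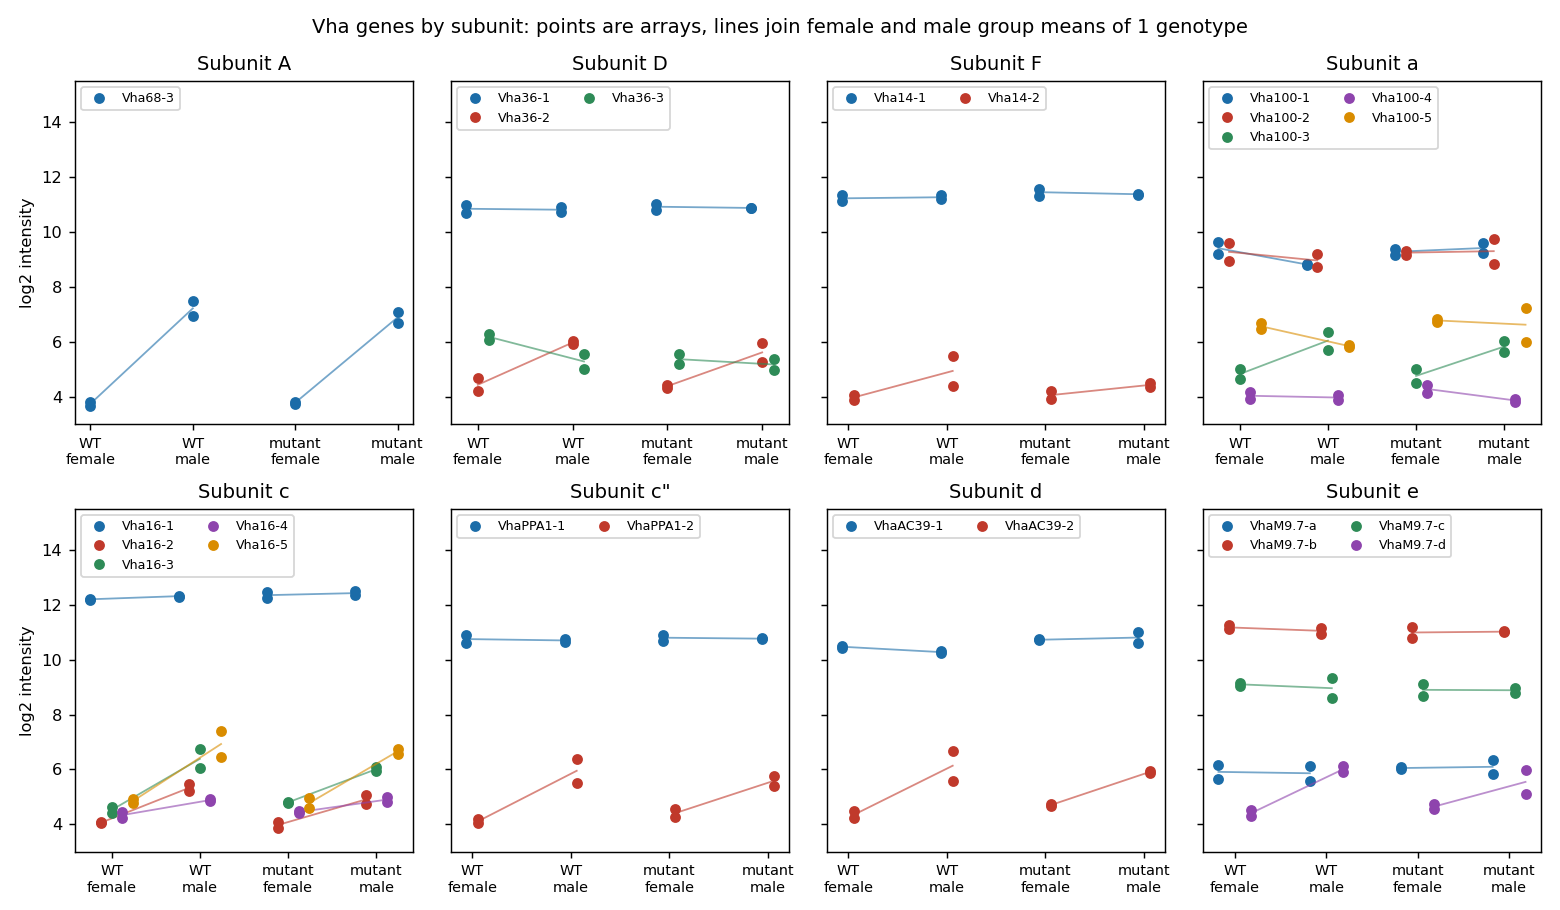
Log2 intensity (y axis) of the Vha genes of 8 subunits in the 4 groups (x axis); each point is 1 array and lines join the female and male means of 1 genotype. In the panels of subunits D, c, c", d and e, genes with means above 10 differ by under 0.20 between the sexes of a genotype, while Vha36-2, Vha16-2 to Vha16-5, VhaPPA1-2, VhaAC39-2 and VhaM9.7-d rise from female to male in both genotypes.

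Apart from the A subunit, represented by Vha68-3 alone, the subunits with 1 gene among the members were not called for sex. Vha55 encodes the B subunit, which pairs with A in the catalytic head, and differed by 0.06 ± 0.10 (limma adjusted p = 0.729). The stalk and regulatory subunit genes Vha26 (E), Vha13 (G), Vha44 (C) and VhaSFD (H) differed by 0.11, 0.08, -0.21 and -0.04. VhaAC45, whose product is an accessory subunit, differed by 0.04 and the related VhaAC45RP by -0.19. Within each genotype all 10 called genes were higher in males on average, with a median of 1.69 in wild type and 1.19 in mutants. Tested within a genotype, 9 of the 10 were called in wild type and 5 in mutants. Of all 11982 genes 1181 and 956 were called higher in males there. The 10 genes were chosen by the mean of both within-genotype differences, so their shared direction is not separate support. All males lay above all females for these 10 and for Vha14-2, 11 of 31, against 12.4% of all genes. Among the 21 Vha genes not called the median sex difference was -0.05, with a range of -0.55 to 0.66.

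Markers of the male germline were mostly higher in males, the direction by which the 10 Vha genes were chosen. Of 15 testis and spermatocyte markers 12 were higher in males, among them bol (3.96 ± 0.21, limma adjusted p = 2.93e-05), a regulator of meiotic entry, and Mst87F (2.52 ± 0.19, adjusted p = 0.000138), a sperm tail gene. Their summed intensity was 509 to 677 in females and 1580 to 2460 in males, and 4 of them (aly, can, comr and twe) lay below the array median on all 8 arrays. The part of testis RNA in the sex differences of the Vha genes was not tested. In the wild type, male replicate 2 was higher than replicate 1 for 6 of the 10 Vha genes, 12 of the 15 markers and 6923 of all 11982 genes, so the Vha split was near that of all genes, while Vha68-3, Vha36-2, VhaM9.7-d and Vha100-3, like the markers bol, CycB3 and fzo, were higher in replicate 1. In the mutants, male replicate 1 was higher for 9 of the 10 Vha genes, 11 of the 15 markers and 6133 of all genes.

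**Figure D3:**
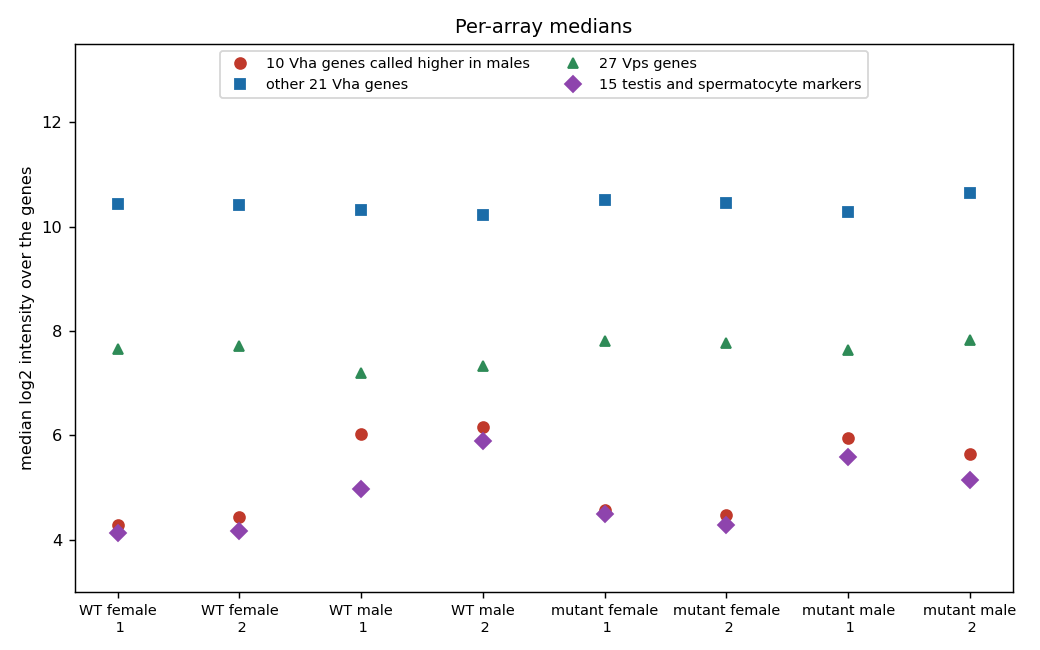
Median log2 intensity (y axis) of 4 gene sets on each of the 8 arrays (x axis). The 10 Vha genes called higher in males lie at 4.27 to 4.56 in females and 5.64 to 6.15 in males, the testis markers at 4.13 to 4.49 and 4.97 to 5.89, and the other 21 Vha genes between 10.23 and 10.64 on all arrays.

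No Vha gene passed the test between the genotypes. Of 31 Vha genes 0 were called for the genotype effect by limma, with 3 at an unadjusted p under 0.05, against 3.66% and 17.1% of all genes. The Vha median was 0.06 (mutant minus wild type), against -0.01 over all genes, and single genes lay between -0.46 and 0.50. For Vha16-1 the 95% interval of the difference ran from -0.09 to 0.36, for Vha68-3 from -0.52 to 0.23, for Vha44 from 0.05 to 0.86 and for Vha100-5 from -0.10 to 1.09, so changes within these bounds are not shown to be absent. The lowest p was that of VhaAC39-1, the d subunit gene not called for sex. It read 10.50 and 10.44 in wild type females, 10.71 and 10.74 in mutant females, 10.32 and 10.23 in wild type males and 10.59 and 11.02 in mutant males. All mutant arrays were above all wild type arrays, by 0.39 ± 0.12 (SE, n = 4 per genotype, adjusted p = 0.18), which did not pass.

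Vha55 was the other Vha gene whose mutant arrays all stood above the wild type arrays, with a difference of 0.21 ± 0.10 (limma adjusted p = 0.443). That makes 2 of 31, against 4.17% of all genes. Vha44, of the C subunit that holds V1 and V0 together, differed by 0.46 ± 0.17 (adjusted p = 0.302). Vha100-5 differed by 0.50 ± 0.25 (adjusted p = 0.501), with mutant male replicate 2, at 7.24, the highest of the 8 arrays, and without mutant male replicate 1 it was called higher in mutants.

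The 10 Vha genes called for sex were a little lower in mutant males than in wild type males without any passing the test. In 9 of them the male difference was below 0, against 47.9% of all genes, with a median of -0.34 against 0.02. It ranged from -0.46 for VhaM9.7-d to 0.01 for Vha16-4. In limma 0 of 10 were called and 1 had an unadjusted p under 0.05, against 1.36% and 17.3% of all genes. Only for Vha16-2 did both mutant males (5.06 and 4.75) lie below both wild type males (5.20 and 5.46), 1 of 10 against 19.4% of all genes. In females 6 of the 10 differences were above 0, with a median of 0.07. Without mutant male replicate 2 the male median was -0.17, and without wild type male replicate 2 it was -0.16. For the testis markers the male median was -0.03, with 8 of 15 below 0. The interaction of genotype and sex, which asks whether the sex difference changed, called 0 of the 58 members in limma, and 0% of all genes. An unadjusted p under 0.05 was reached by 7 of the 58, against 8.13% of all genes.

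Among the Vps genes the sex calls were small. Vps16B, which acts with Vps33B in lysosomal delivery and phagosome maturation, read 5.94 and 5.74 in wild type females, 5.84 and 5.72 in mutant females, 5.05 and 5.31 in wild type males and 5.45 and 5.62 in mutant males. All males were lower, by -0.45 ± 0.11 (SE, n = 4 per sex, limma adjusted p = 0.0448). Vps52, a core subunit of GARP and EARP, read 6.28 and 6.30, 6.28 and 6.29, 5.86 and 5.65, and 6.01 and 6.01 in the same groups. It was lower in all males too, by -0.41 ± 0.09 (adjusted p = 0.0311). These 2 of 27 compare with 7.24% of all genes whose males all lay below the females, and both calls ended under filters on dim probe sets, with a variance trend and with most single arrays left out.

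The remaining 25 Vps genes were not called for sex, and 23 of 27 differences lay below 0, against 68.4% of all genes. Vps13B, whose human counterpart acts at the Golgi, went the other way without passing. It read 5.68, 6.04, 5.73 and 6.19 in the females and 6.22, 6.29, 6.66 and 6.57 in the males, all males above all females, with a difference of 0.53 ± 0.14 (limma adjusted p = 0.0646). Without mutant female replicate 2 it was called higher in males. The related Vps13 and Vps13D differed by 0.05 and -0.23.

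Within the wild type most Vps genes read lower in males than in females. Both wild type males lay below both wild type females for 18 of 27, against 37.5% of all genes, and the median difference was -0.33 against -0.16. In mutants this held for 3 of 27, against 27.6%, with a median of 0.07 against -0.03. The mutant median has no settled sign, being -0.07 after a second quantile normalization, -0.18 after median centring and -0.04 without mutant female replicate 1. Wild type male replicate 1 was the lowest of the 8 arrays for 17 of the 27, against 28% of all genes. Without it the wild type median was -0.21 and 21 of 27 differences were below 0.

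Compared within males, 26 of 27 Vps genes read higher in mutants than in wild type, against 52.1% of all genes, and the median was 0.36 against 0.02. Both mutant males lay above both wild type males for 22 of 27, against 23.5% of all genes. The Vha genes gave 8 of 31. No single Vps difference passed in limma. That is 0 of 27, with 7 at an unadjusted p under 0.05, against 1.36% and 17.3% of all genes. Without wild type male replicate 1 the count above 0 was 25 and the median 0.27, and without mutant male replicate 2 they were 27 and 0.33. In females 11 of 27 lay above 0 with a median of -0.05. There 0 were called, against 1.22% of all genes, and 0 had an unadjusted p under 0.05, against 1324 of 11982 genes. The interaction of genotype and sex was not called in limma for any Vps gene, with 6 at an unadjusted p under 0.05, against 8.13% of all genes. These comparisons share the wild type males, so the low wild type male values enter the sex, genotype and interaction values alike. The median interaction was 0.26 for the Vps genes, against 0.08 over all genes and 0.04 over all probe sets. It was 0.20 over probe sets with a mean at or above the median of all probe sets. Over those above 5 in at least 2 arrays it was 0.17. All 27 Vps genes passed both filters, so part of the contrast with all genes is shared by brighter probe sets.

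**Figure D4:**
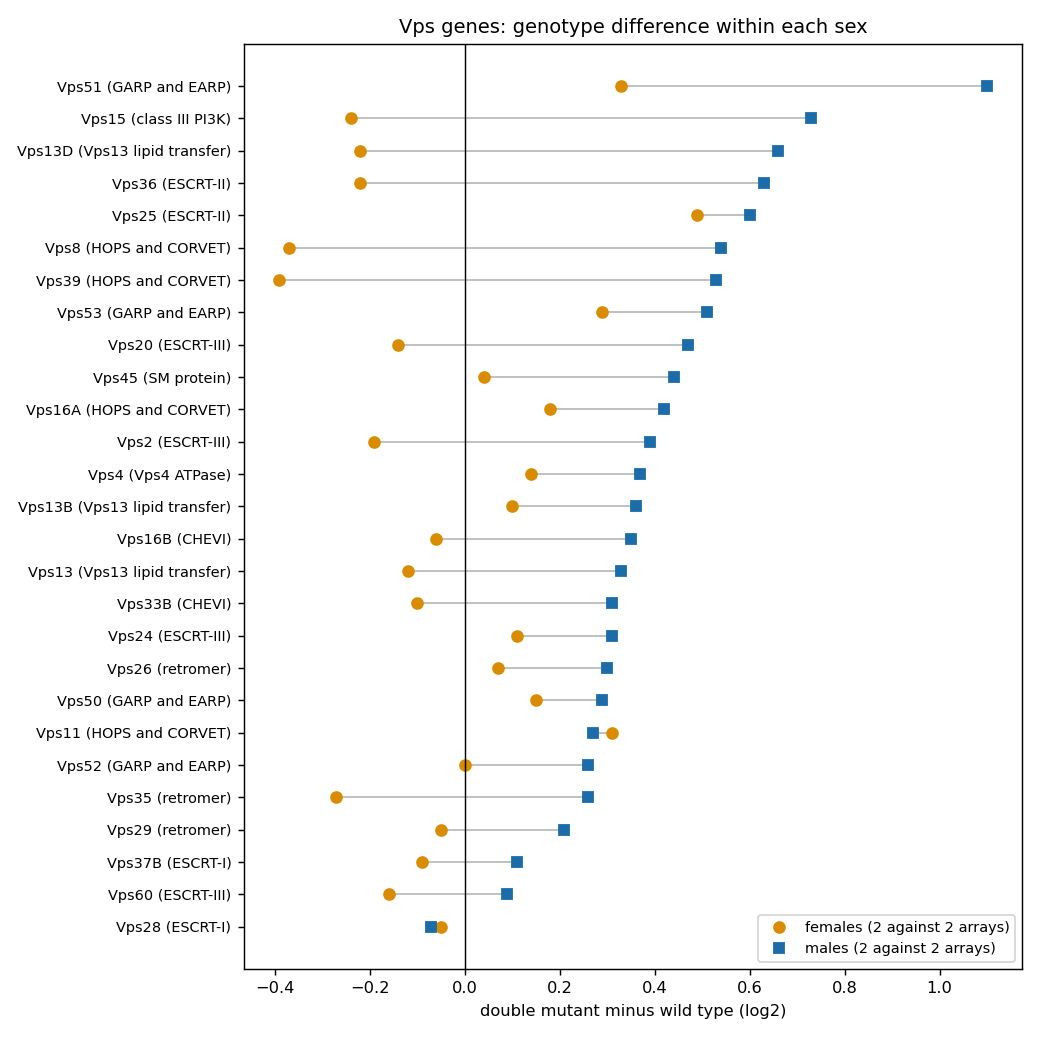
Double mutant minus wild type difference (log2, x axis) of the 27 Vps genes within females (circles) and males (squares), 2 against 2 arrays each, with the complex of each gene in parentheses. In males all but Vps28 lie above 0, up to 1.10 for Vps51, while in females the values run from -0.39 to 0.49.

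By complex, the 4 GARP and EARP genes, whose products tether endosome-derived vesicles, had a median genotype difference of 0.31 over both sexes. Vps51 had the lowest p of the family. It read 7.11 and 6.72 in wild type females, 7.11 and 7.39 in mutant females, 6.46 and 6.28 in wild type males and 7.24 and 7.68 in mutant males. The males of the genotypes were well apart and the females touched, and the genotype difference of 0.71 ± 0.15 (SE, n = 4 per genotype, limma adjusted p = 0.0639) did not pass. Within males it was 1.10 (adjusted p = 0.0868) and within females 0.33 (adjusted p = 0.781). The other members of these complexes, Vps53, Vps50 and Vps52, differed by 0.40, 0.22 and 0.13.

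The 4 HOPS and CORVET genes had a median male genotype difference of 0.48 and a median female difference of -0.10. Vps8, specific to CORVET, read 6.95 and 6.80 in wild type females, 6.39 and 6.61 in mutant females, 5.92 and 6.33 in wild type males and 6.56 and 6.77 in mutant males. Mutants were lower in females and higher in males without overlap in either sex, and the interaction of 0.91 did not pass (limma adjusted p = 0.766). Vps13D, needed for mitochondrial clearance in fly gut, was the only other member with this crossed pattern (interaction 0.89, adjusted p = 0.766). The share of all genes with the crossed pattern is not given here, so it cannot be called particular to these members. Vps39, a HOPS subunit, had an interaction of 0.92 (adjusted p = 0.766), with mutant females at 6.38 and 6.98 overlapping wild type females at 7.27 and 6.88. The other genes of this group, Vps11 and Vps16A, differed by genotype by 0.29 and 0.30. Vps11 was the 1 Vps gene of 27 whose mutant arrays all lay above the wild type arrays, against 4.17% of all genes.

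The ESCRT genes covered 3 complexes and the Vps4 ATPase, which takes the ESCRT-III filament apart. In ESCRT-II, Vps25 differed by genotype by 0.54 ± 0.22 (limma adjusted p = 0.35) and Vps36 by 0.21. Vps36 read 7.78 and 7.71 in wild type females and 6.72 and 7.24 in wild type males, and its interaction was 0.86 (adjusted p = 0.766). The filament subunit genes Vps2, Vps20, Vps24 and the related Vps60 lay between -0.03 and 0.21 for genotype and between -0.13 and -0.01 for sex. The ESCRT-I genes Vps28 and Vps37B differed by genotype by -0.06 and 0.01, and Vps4 by 0.26 (adjusted p = 0.316).

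The retromer genes Vps26, Vps29 and Vps35, whose products form the cargo-selective trimer, differed by genotype by 0.19, 0.08 and -0.01. Vps15, the regulatory subunit of the class III kinase, read 7.43 and 7.07 in wild type females, 6.72 and 7.30 in mutant females, 6.09 and 6.71 in wild type males and 7.01 and 7.24 in mutant males. Its interaction of 0.96 was the largest of the family and did not pass (limma adjusted p = 0.766). Vps45, which assists SNARE proteins in early endosome fusion, differed by genotype by 0.24, and Vps33B by 0.11. The highest family means over 8 arrays were those of Vps60 (11.20) and Vps2 (10.68) and the lowest those of Vps52 (6.08) and Vps16B (5.58), while the Vha means ran from 4.04 (Vha100-4) and 4.35 (Vha14-2) to 11.88 (Vha13) and 12.32 (Vha16-1); these order probe sets by brightness, not transcripts by number.

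Partner genes without a Vps or Vha symbol were read from lists chosen with earlier results of these data known. For genotype 0 were called in limma in any of 6 lists, with median differences of 0.18 for 6 HOPS and CORVET partners, 0.19 for 10 ESCRT partners, 0.08 for 9 retromer partners, 0.09 for 7 partners of GARP and the class III kinase, 0.17 for 7 V-ATPase regulators and 0.04 for 19 lysosomal genes. Unadjusted p under 0.05 was reached by 0, 4, 1, 1, 1 and 3 of them. Over all genes 3.66% were called and 17.1% reached that unadjusted level. The lists named 9, 11, 10, 9, 14 and 24 genes, and only those matched to a probe set with a single symbol are counted. Chmp1, an ESCRT-III gene, came closest with 0.58 ± 0.13 (adjusted p = 0.0749). For sex, Hexo2, a hexosaminidase gene, was lower in males by -0.48 ± 0.11 (adjusted p = 0.0342) and no other gene of these lists was called. In males, in the order of those lists, 5 of 6, 9 of 10, 8 of 9, 7 of 7, 6 of 7 and 13 of 19 read higher in mutants, against 52.1% of all genes, again without a call. Mitf, whose product switches on V-ATPase and lysosomal genes, read 5.25, 5.87, 5.23 and 5.52 in the wild type and 6.18, 5.91, 5.98 and 5.44 in the mutants (0.41 ± 0.19, adjusted p = 0.436), and the groups overlapped.

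Among markers of other tissues, the midgut set was called for genotype throughout. All 4 measured midgut markers were higher in mutants (median 2.75) and 1 was lower in males, with summed intensities of 552 to 1850 in wild type and 2540 to 8790 in mutants. The 5 Malpighian tubule markers, from an organ rich in V-ATPase, had a median genotype difference of 0.04 and 0 calls in limma (2 at an unadjusted p under 0.05), while ZnT35C was higher and Irk3 lower in males. The 6 salivary gland markers had a median of -0.65 with 1 lower in mutants and 1 lower in males, and summed 17600 to 29600 in wild type and 13500 to 17100 in mutants. The 3 fat body markers had a median of -0.06 with 0 calls for genotype or sex, also at an unadjusted p under 0.05. All 5 measured markers listed for ovary and female germline lay below the array medians, and 0 of them were called for sex (1 at an unadjusted p under 0.05). Of these bam was higher in mutants over both sexes (0.56, limma adjusted p = 0.025). With 0 sex calls, these markers are not shown to be particular to females here. The testis markers had 0 genotype calls (2 at an unadjusted p under 0.05). Over all genes 3.66% were called for genotype and 17.1% had an unadjusted p under 0.05. The part of these tissues in the Vha and Vps values was not tested.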

How the data were processed

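Each 1-colour Affymetrix array holds RNA of 1 prepupa, per the labels. The deposited values are intensities on a linear scale, made by RMA per the submitters' processing notes; no software or later scaling is named there. They were taken to log2. Of 18952 probe sets, 183 controls were left out. The platform annotation named 1 gene for 13647 probe sets, several for 402 and none for 4720, and all 58 members matched a Release 6 gene table, which changed 0 symbols. Groups came from sample titles. Differences were fitted with limma 3.58.1 in R 4.3.3 (lmFit and eBayes on 4 group means, 4 residual and 3.03 prior degrees of freedom), and the sex and genotype effects averaged both within-group differences. The number of arrays limits the precision, and the fit was tested on simulated data. It recovered 11% of genotype differences and 12.5% of sex differences of 0.5, and 82.4% and 78.2% of those of 1. Most differences of 0.5 or less would thus be missed. Named with full values were up to 8 called members per family and effect with the largest differences, the lowest p per family, paralogs of a subunit, and the brightest and dimmest members; others singled out were chosen after their values were seen. The members and lists were chosen with earlier results of these data known. Alternatives covered scaling, dim probe sets, variance priors, probe set choice, a replicate block, weighted arrays, the model, a 2-fold threshold and the omission of each array; the family medians within males and within wild type without single arrays were added after seeing the data. Sequences and promoter motifs are not analysed here.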

Additional observations from a re-analysis of the deposited data

How the results depend on the processing

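The count of Vha genes called for sex stayed between 7 and 15 over 20 alternatives. Filters on dim probe sets left 7 or 9 because they removed 5 or 3 members. After repeated quantile normalization 9 were higher and 2 lower in males. Under median centring 9 were higher (all but Vha16-4) and 6 lower in males. Vps calls for sex, 2 with all arrays, numbered 7 after repeated quantile normalization and 17 after median centring, all lower in males. They numbered 0 under either dim filter, with a variance trend, with a robust variance trend, with the replicate block and at 2-fold, and 1 without the interaction term. With 1 array left out they numbered 0 to 1, and without mutant female replicate 2 the 1 call was Vps13B, higher in males. Over all probe sets scaling moved the sex calls from 1894 (80.1% higher in males) to 3476 (45.6%) after quantile normalization and 12522 (11.5%) after centring; male array medians are higher while most single differences are below 0, so centring lowers every male value. Vha calls for genotype stayed at 0 except for 0 to 1 with 1 array left out (Vha100-5, without mutant male replicate 1). Vps calls for genotype and member calls for the interaction stayed at 0 in all alternatives. Of 227 alternative values for 12 named member differences 0 reversed and 27 lost their call, 13 for Vps16B (adjusted p up to 0.155), 12 for Vps52 (up to 0.145) and 2 for Vha100-3. Deviations of same-numbered replicates correlated at 0.184 to 0.413 among wild type females, wild type males and mutant females. Those of the mutant males correlated with these groups at -0.304 to -0.178. The labels give same-numbered samples nothing in common but the number, and whether they share a batch was not tested. The replicate block left 10 Vha and 0 Vps calls for sex. Where no cause is given, the cause was not tested. Dim signal limits what can be seen of the Vha paralogs in females, where 7 of the 10 lay below the array medians.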
